A study of Homo sapiens with 4 samples.

Results

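Metallothioneins are small cysteine-rich proteins, and 8 of their genes were examined here with the gene of their transcriptional regulator MTF1 and the gene of the zinc exporter SLC30A1. The 10 genes were taken by their symbols, and each symbol matched a single gene identifier among the 57879 genes in the files. The RNAseq was of T24 cells, which derive from a human bladder carcinoma and were grown in RPMI medium with fetal calf serum. The cells carried either an empty vector (EV, labelled control) or a FLAG-tagged vector with the catalytic domain of TET1 (TET1-CD), the enzyme that oxidizes 5-methylcytosine in DNA. Both vectors were delivered by lentivirus and the infected cells were selected with puromycin, so that the EV libraries share the vector backbone and the selection. There were 2 EV and 2 TET1-CD libraries. The source name of all 4 libraries, controls included, also carries the word induced, which is not explained. Each group is a selected population of 1 cell line. The labels do not say whether the libraries of a group came from separate cultures, so p-values measure only the spread between these libraries, which may be technical. A catalytically inactive TET1-CD was not analysed here.

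Metallothioneins bind zinc, copper and cadmium through their cysteines, buffer the free zinc of the cell and scavenge oxidants. When zinc rises, the zinc finger factor MTF1 moves to the nucleus and binds metal response elements in the promoters of metallothionein genes and of SLC30A1, whose product carries zinc out of the cytosol. MT2A and most MT1 genes are also induced by glucocorticoids or stress, and several MT1 promoters are known to be methylated in cancers.

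The promoters of the genes were searched for the letters of the metal response element, the site that MTF1 binds. RefSeq gave a promoter for MT2A, MT1X, MT1H, SLC30A1 and MTF1, that is for 5 of the 10 genes. The 250 bases before the RefSeq start were searched on both strands for the core of the element, TGCACNC or TGCGCNC, where N is any base. Each of the windows matched GRCh37 exactly at 1 place on its chromosome. MT2A (chr16:56642246-56642495, plus strand) held 7 cores, MT1X (chr16:56716132-56716381, plus strand) held 4, and MT1H (chr16:56703476-56703725, plus strand) held 8. SLC30A1 (chr1:211752504-211752753, minus strand) held 1, and MTF1 (chr1:38325265-38325514, minus strand) held 0, which says only that these letters are not in this window. The windows of the 2 metallothioneins that were lower in TET1-CD cells, of 1 that had no counts and of the exporter are written below from 5′ to 3′ on the strand of the gene. Capitals mark the cores, and a core on the opposite strand appears as its reverse complement, which begins with G. No core overlapped another.
MT2A: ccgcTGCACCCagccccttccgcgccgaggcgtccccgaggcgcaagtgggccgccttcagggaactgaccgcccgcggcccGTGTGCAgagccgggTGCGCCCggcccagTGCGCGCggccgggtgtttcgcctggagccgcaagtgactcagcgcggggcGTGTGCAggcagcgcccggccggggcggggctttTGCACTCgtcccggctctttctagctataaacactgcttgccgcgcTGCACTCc
MT1X: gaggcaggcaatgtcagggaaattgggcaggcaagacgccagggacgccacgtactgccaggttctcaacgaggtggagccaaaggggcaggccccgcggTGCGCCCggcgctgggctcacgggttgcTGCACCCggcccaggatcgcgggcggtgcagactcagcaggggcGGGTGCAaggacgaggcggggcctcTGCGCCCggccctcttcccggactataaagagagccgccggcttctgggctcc
MT1H: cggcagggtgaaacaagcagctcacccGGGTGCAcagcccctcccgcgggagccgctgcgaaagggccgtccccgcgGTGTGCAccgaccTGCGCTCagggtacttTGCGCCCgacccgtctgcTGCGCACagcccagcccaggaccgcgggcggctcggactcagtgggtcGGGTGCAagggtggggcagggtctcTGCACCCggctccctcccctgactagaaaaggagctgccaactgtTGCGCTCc
SLC30A1: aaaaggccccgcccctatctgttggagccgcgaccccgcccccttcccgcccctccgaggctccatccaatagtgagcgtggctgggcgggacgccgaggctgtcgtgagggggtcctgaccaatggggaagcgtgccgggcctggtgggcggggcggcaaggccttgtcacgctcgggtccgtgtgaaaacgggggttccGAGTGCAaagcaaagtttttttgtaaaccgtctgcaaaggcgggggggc
Of 35116 RefSeq promoter windows of this length, 24.8% held at least 1 core, 6.48% at least 2, 0.37% at least 4 and 0.0313% at least 7. The windows were also rich in CpG, the dinucleotide in which DNA is methylated. MT2A held 32 CpG, MT1X, MT1H and SLC30A1 22 each and MTF1 20, beside a median of 11 over all windows. For MT2A and MT1X the files list a gene start upstream of the RefSeq start, so the window of MT2A and the end of that of MT1X lie inside the listed gene, as does a short stretch at the end of that of MTF1. For SLC30A1 the window lies wholly upstream of the listed start. A match of letters is no measurement of binding or methylation, and neither was measured in these libraries.

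The libraries held between 17442143 and 20295266 expected counts, that is fragments assigned to each transcript by estimation, summed here per gene. TET1 was far more abundant in the libraries labelled TET1-CD, with 2939 and 3310 counts against 111 and 83. Keratins 7, 8 and 18 were abundant in all 4 libraries, and FOXA1 and PPARG had 363 to 587 counts. The other luminal markers KRT19 and GATA3 had fewer counts, with more in TET1-CD libraries. KRT19 had 103 and 66 counts in EV against 165 and 169 in TET1-CD libraries (2.01-fold). GATA3 had 19 and 19 counts against 46 and 44 (2.38-fold). The uroplakins, which mark umbrella cells, had at most 6 counts, and KRT5 and KRT20 had 0. Of the 14 urothelial markers 7 were tested. At an edgeR adjusted p under 0.05, 5 were higher in TET1-CD cells, KRT19 and GATA3 among them, and 0 were lower. Of all genes tested, 10% were higher and 9.61% lower. The 14 markers summed to 2353 to 2385 CPM (counts scaled to library size) in EV and 2678 to 2708 in TET1-CD libraries. Fibroblast markers summed to 4.87 to 5.42 CPM in EV and 16.7 to 17.6 CPM in TET1-CD libraries, mostly COL1A1. Of the leukocyte markers, PTPRC and CD3E had 2 counts or fewer in each library, and CD68, a macrophage marker that other cells also express, had 494 and 577 counts (EV) against 411 and 451 (TET1-CD), with an edgeR adjusted p of 0.129. Of 3 endothelial markers listed, only VWF and CDH5 were found by their symbols, and these 2 summed to 0.591 to 1.13 CPM. The part of these markers in the results was not tested. In such bulk libraries, fewer cells of a type and less RNA per cell cannot be told apart.

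The metallothioneins among the 10 genes that had counts were all lower in TET1-CD cells. MT2A, MT1E, MT1X, MT1M and MT1F fell to between 63.2% and 79.0% of their EV level, while MTF1 and SLC30A1 were at 90.1% and 90.2% and did not pass the test. MT1A, MT1G and MT1H had 0 counts in all 4 libraries. By edgeR's quasi-likelihood test with Benjamini-Hochberg adjustment over 14573 genes, 5 of the 7 genes with enough counts for a test passed an adjusted p of 0.05, all of them lower. Of all genes tested, 19.7% passed this threshold, 9.61% lower and 10.0% higher. The median log2 fold change of the 5 metallothioneins was -0.47, beside 0.001 over all genes tested, of which 49.8% were below 0. None of the 10 genes passed the threshold together with a fold change of 2, which 3.77% of all genes did, and the count was likewise 0 by DESeq2 and limma-voom. At an unadjusted p under 0.05 by edgeR, 5 passed, all lower, beside 16.4% of all genes tested that were lower at that threshold, and none of the 5 had a fold change of 2. The count of 5 depended on single libraries and on the tool. It was 2 by DESeq2 (MT1E and MT1M), 2 without TET1-CD replicate 1 (MT2A and MT1M) and 0 without TET1-CD replicate 2, where 5 were lower at an unadjusted p under 0.05 by edgeR, beside 10.7% of all genes in that fit. For all 7 tested genes both TET1-CD libraries were below both EV libraries in normalized counts, which held for 30.2% of all genes tested.

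**Figure D1:**
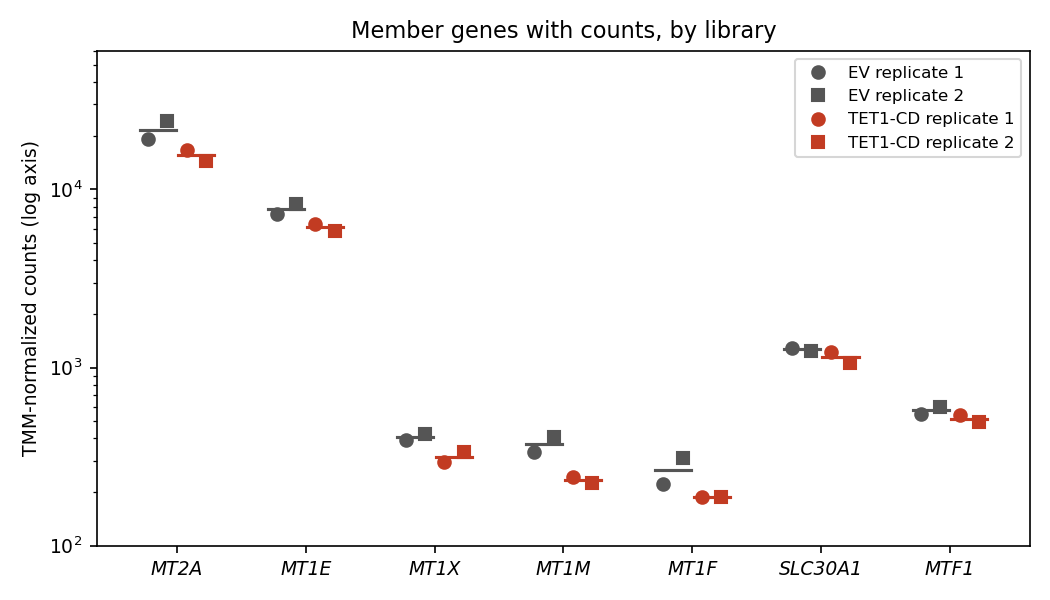
Counts of the 7 genes with counts in each library after TMM normalization, on a log axis. Grey points are EV and red points TET1-CD libraries, circles are replicate 1 and squares replicate 2, and horizontal lines are group means. Both TET1-CD libraries lie below both EV libraries for each gene, as they do for 30.2% of all genes tested. The gap relative to level is widest for MT1M (334 and 410 against 243 and 226) and narrow for MTF1 (547 and 602 against 539 and 495).

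MT2A encodes the most widely expressed human metallothionein, and it was the most abundant of the family. Its position is 56642111 to 56643409 on chromosome 16 (GRCh37, plus strand). The EV libraries held 20712 and 22338 counts of it, the TET1-CD libraries 15663 and 15250. Scaled to library size by TMM, a normalization that assumes most genes do not change, these came to 19068 and 24049 against 16630 and 14491. The groups did not overlap, but EV replicate 2 was 1.26-fold above EV replicate 1, a wider gap than that from EV replicate 1 to the TET1-CD mean. The mean was 21558 ± 3522 (SD, n = 2) for EV, against 15561 ± 1512 (SD, n = 2) for TET1-CD, and the log2 fold change was -0.47 (standard error 0.10, edgeR adjusted p = 0.0104).

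MT1E, from 56659387 to 56661024 on the plus strand of chromosome 16, encodes the second most abundant metallothionein here. Its normalized counts were 7246 and 8287 in EV and 6430 and 5836 in TET1-CD libraries. The groups were apart, with EV replicate 1 closest to the TET1-CD libraries. Its fold change was the smallest among the 5, at -0.34 on the log2 scale (standard error 0.07, edgeR adjusted p = 0.0104). The other MT1 genes were far less abundant.

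MT1M, from 56666145 to 56667898, is an MT1 isoform gene that lies next to MT1E in the members' order. The EV libraries held 363 and 381 counts of it and the TET1-CD libraries 229 and 238, or 334 and 410 against 243 and 226 after normalization. Its TET1-CD libraries were closely alike and both well below EV. The log2 fold change of -0.66 (standard error 0.12, edgeR adjusted p = 0.00467) was the largest in size among the members.

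MT1X, from 56716336 to 56718108, lies at the far end of the cluster. Its normalized counts were 392 and 421 in EV and 293 and 334 in TET1-CD libraries. Unlike MT2A, MT1E and MT1M, it had TET1-CD replicate 2 above replicate 1. The log2 fold change was -0.37 (standard error 0.10, edgeR adjusted p = 0.03).

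MT1F, from 56691606 to 56694610, had 222 and 310 normalized counts in EV but 187 in both TET1-CD libraries. The EV libraries stood 1.4-fold apart, which is nearly as wide as the difference between the group means, 266 ± 62.4 (SD, n = 2) for EV against 187 ± 0.233 (SD, n = 2) for TET1-CD. MT1F was close to the threshold, at -0.50 on the log2 scale (standard error 0.16) and an edgeR adjusted p of 0.0479. Without EV replicate 2 the log2 fold change was -0.25 with an adjusted p of 0.181, and by limma-voom the adjusted p was 0.0683. By DESeq2 it was 0.108. Its largest adjusted p among the alternatives, 0.546, came from edgeR's fit of single transcripts, in which 1 of 43213 transcripts passed. In all 5 metallothioneins EV replicate 2 was above EV replicate 1, by 1.07-fold for MT1X to 1.4-fold for MT1F.

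**Figure D2:**
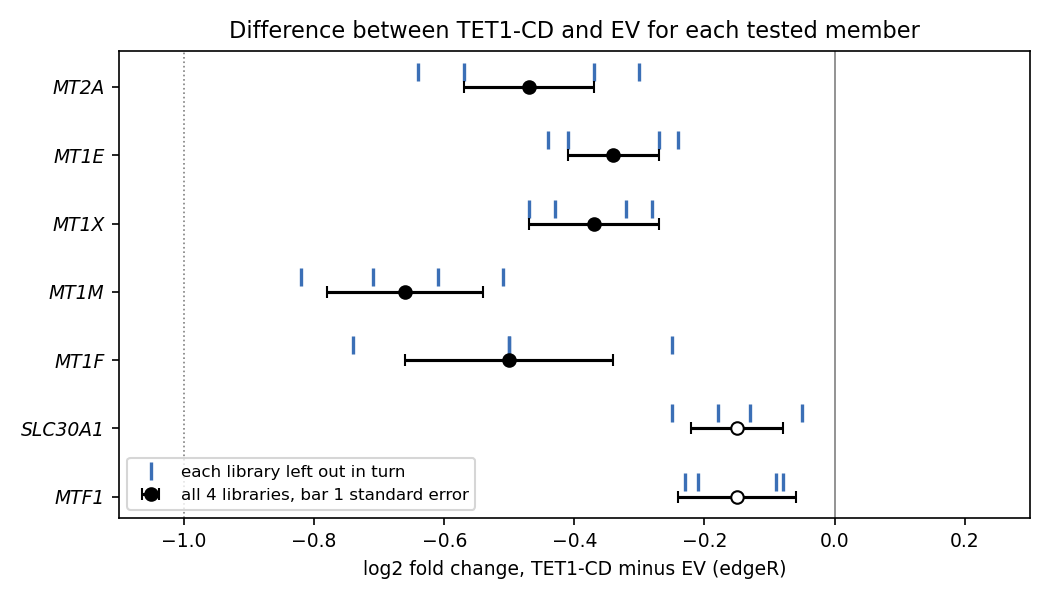
Log2 fold change of each tested gene between TET1-CD and EV cells by edgeR, with a bar of 1 standard error on each side. Filled points passed an adjusted p of 0.05 and open points did not, blue ticks are the values with each library left out in turn, and the dotted line marks a fold change of 2. All ticks lie below 0, from -0.82 for MT1M to -0.05 for SLC30A1, and none reaches the dotted line.

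MT1A, MT1G and MT1H encode MT1 isoforms that are induced by metals in many cell types. Each had 0 counts in all 4 libraries, and 3 counts, the limit that a count of 0 allows, correspond to 0.148 to 0.172 CPM. They could not be compared between the groups. MT1A lies from 56672578 to 56673999, MT1G from 56700643 to 56701977 on the minus strand and MT1H from 56703726 to 56705041, between genes of the family that did have counts. The MT1H promoter shown above held 8 cores, 1 more than that of MT2A.

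Summed over the 8 genes, the metallothioneins took 0.146% and 0.178% of the EV libraries and 0.128% and 0.114% of the TET1-CD libraries. After normalization the sums were 27262 and 33477 in EV and 23783 and 21075 in TET1-CD libraries. The TET1-CD libraries were both below the EV libraries, at 0.739 of the EV mean, and the sum followed MT2A and MT1E, which held 96.5% to 97.0% of it. The make-up of the family shifted little. MT2A held 69.9% and 71.8% of the sum in EV and 69.9% and 68.8% in TET1-CD libraries, and MT1E held 26.6% and 24.8% against 27.0% and 27.7%. MT1M, at 1.23% in both EV libraries, held 1.02% and 1.07% in the TET1-CD libraries. No test was made on the sum or on the shares.

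Levels of different genes were compared per length, in FPKM (fragments scaled to transcript length and library size) as deposited. MT2A stood at 1304.72 and 1635.24 FPKM in EV and 1140.94 and 995.93 in TET1-CD libraries. It was 2.46-fold above MT1E in EV (2.24-fold in TET1-CD cells), and MT1E was 12.6-fold above MT1X (12.9-fold). Below the gap between MT1E and MT1X came MT1M, MT1F, SLC30A1 and MTF1 in this order in both groups. Only MT1M and MT1F overlapped as neighbours, in EV, where MT1M had 21.73 and 26.7 FPKM and MT1F 17.51 and 24.04 FPKM. MTF1 was lowest, at 3.93 to 4.26 FPKM.

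MTF1 lies on chromosome 1 from 38275239 to 38325292 on the minus strand. Its normalized counts were 547 and 602 in EV and 539 and 495 in TET1-CD libraries. EV replicate 1 and TET1-CD replicate 1 were nearly equal, although the groups did not overlap. The log2 fold change was -0.15 (standard error 0.09) and did not pass edgeR's test (adjusted p = 0.271). On the FPKM scale the groups overlapped, with 4.06 and 4.02 in EV and 4.26 and 3.93 in TET1-CD libraries, and the log2 ratio of the means was 0.02. MTF1 is switched on largely through its zinc binding and its move to the nucleus, which RNA levels do not show.

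SLC30A1, from 211744910 to 211752084 on the minus strand of chromosome 1, is a known target of MTF1 beside the metallothioneins. Its normalized counts were 1290 and 1245 in EV and 1222 and 1066 in TET1-CD libraries. Only TET1-CD replicate 2 stood well below the other libraries. The log2 fold change of -0.15 (standard error 0.07) did not pass edgeR's test (adjusted p = 0.19). The difference between SLC30A1 and the metallothioneins in their change was not tested.

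The 8 metallothionein genes lie within 76.0 kb of chromosome 16. From MT2A toward MT1X, the order of the members was MT2A, MT1E, MT1M, MT1A, MT1F, MT1G, MT1H and MT1X, so that genes with 0 counts lay among genes with counts. MT1L, a metallothionein gene or pseudogene that is not among the 10, lies between MT2A and MT1E and went the other way. The EV libraries held 0 and 1 counts of it, the TET1-CD libraries 23 and 25. The ratio of its summed counts scaled to library size was 48.5. It is given as a description with no interval, and it rests on the 1 EV count. MT1L had enough counts for a test only through the TET1-CD libraries and is not among the genes with 10 counts in every library, so its edgeR p is not given. Its fitted log2 fold change, which depends on the prior count, was 5.28, and it was 4.32 without EV replicate 1 and 7.63 without EV replicate 2. At this level MT1L was 0.108% of the metallothionein counts in TET1-CD libraries. MT1 genes are nearly identical in their coding sequence, so their assignment is uncertain. Of 14 other metallothionein genes and pseudogenes listed, 12 were in the files, 10 had 0 counts throughout and MT1P3 had 1 count in a single library.

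**Figure D3:**
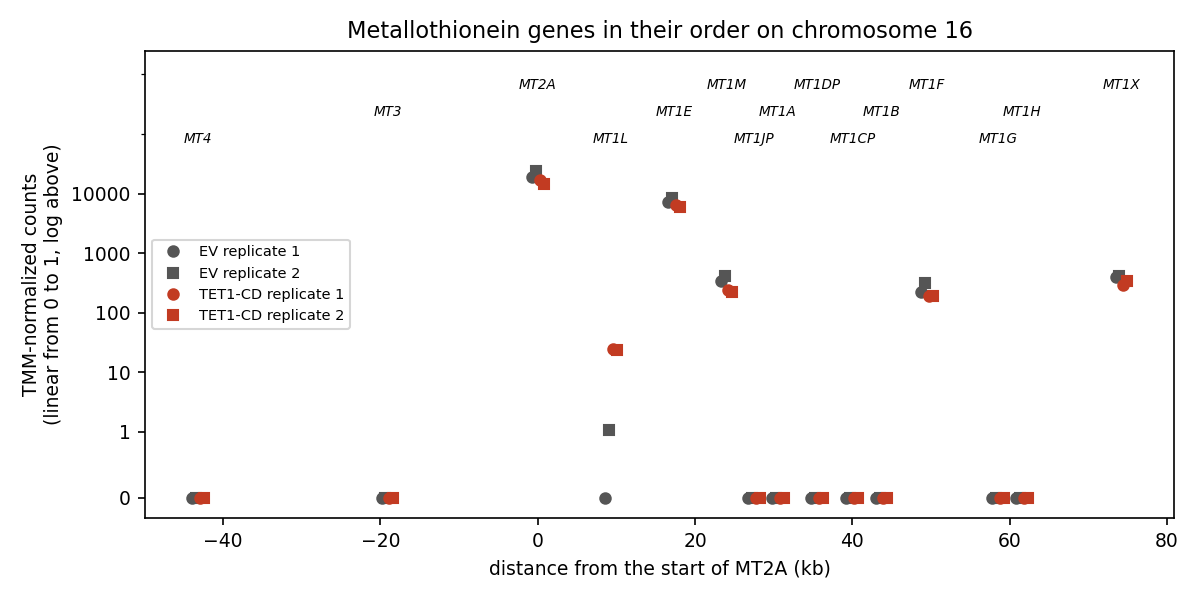
TMM-normalized counts of the 15 metallothionein genes and pseudogenes of the cluster against the distance of their start from that of MT2A in kb, with the 4 points of a gene set slightly apart for legibility. The vertical axis is linear from 0 to 1 and logarithmic above. Genes at 0 lie among genes with counts along the cluster, and MT1L, at 9.3 kb, is the gene with TET1-CD points above EV points.

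The genes beside the cluster gave a mixed picture. Of 9 neighbours on chromosome 16, 6 were tested and their median log2 fold change was -0.12. Of the 6, 1 passed and was lower, beside 9.61% of all genes tested. The neighbour that passed was HERPUD1, a gene of the endoplasmic reticulum stress response, with -0.38 (standard error 0.07, edgeR adjusted p = 0.00413), which like the metallothioneins was lower in TET1-CD cells.

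The fragments were divided among 29 listed transcripts of the 10 genes, 20 of which had counts above 0. Per transcript only 17.5% of values were whole numbers within 0.01, but 90.0% of the 20 library sums of the 5 metallothioneins were, beside 84.3% of all gene sums. Fragments of the 5 metallothioneins were thus divided between the transcripts of a gene and hardly between genes. This did not hold for every other gene, since part of all gene sums was not whole. Whole sums cannot show that fragments of nearly identical MT1 genes were given to the right gene. The main MT2A transcript, ENST00000245185, had 20471 and 22145 counts (EV) against 15524 and 15145 (TET1-CD), a log2 fold change of -0.46. A minor MT2A transcript, ENST00000567300, had 111 and 91.9 counts (EV) against 45.8 and 48.0 (TET1-CD). Both were lower in the TET1-CD libraries, the minor one with a log2 fold change of -1.08. Tested one by one with edgeR, 0 of the 12 member transcripts with enough counts passed an adjusted p of 0.05, beside 1 of all 43213 transcripts tested (0.00231%). At an unadjusted p under 0.05, 4 of the 12 were lower, beside 5.41% of all transcripts tested.

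The remaining zinc transporters, which move zinc across cell membranes with SLC30A1, showed no shared direction. Of 23 listed, 16 were tested, 2 were higher and 2 lower, and the median was -0.05 on the log2 scale. Among all genes tested, 10% were higher and 9.61% lower. SLC39A7, which releases zinc from the endoplasmic reticulum and Golgi, rose by 0.20 on the log2 scale (edgeR adjusted p = 0.0268), and SLC30A5, which loads zinc into the secretory pathway, rose by 0.21 (edgeR adjusted p = 0.0372). SLC39A10, an importer at the cell surface, fell by 0.21 (edgeR adjusted p = 0.0464). All 3 changes lost their call when DESeq2 was used. Outside EV replicate 1 the sums of SLC39A7 were not whole numbers, so that its assignment is uncertain.

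Copper handling genes had a median log2 fold change of 0.03. Of 10 tested 1 was higher, which equals the share of 10% among all genes tested. The gene that passed was the copper exporter ATP7A at 0.34 (standard error 0.10, edgeR adjusted p = 0.0419), a call that was lost with DESeq2. Of 11 iron handling genes 2 were higher and 2 lower, with a median of 0.04, beside 10% higher and 9.61% lower among all genes. The endosomal ferrireductase gene STEAP3 rose by 0.85 (edgeR adjusted p = 0.000154), though its sums were not whole either. The iron importer SLC11A2 fell by 0.44 (edgeR adjusted p = 0.000686) and the iron regulatory protein gene ACO1 fell by 0.20 (edgeR adjusted p = 0.0235).

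Genes of the response to metals and oxidants, many of which cadmium or oxidants induce together with metallothioneins, were higher where they passed. Of 12 tested 7 were higher and 0 lower, and the median of all 12 was 0.26 on the log2 scale. Among all genes tested, 10% were higher and 9.61% lower. The heat shock cochaperone gene DNAJB1 rose by 0.55 (edgeR adjusted p = 0.000381), HSPA1A, which is nearly identical to HSPA1B, by 0.51 (edgeR adjusted p = 0.00393), and GCLM, of glutathione synthesis, by 0.31 (edgeR adjusted p = 0.00526). HMOX1 is among the higher genes of both this list and the iron list. Of 9 genes tested of the glucocorticoid response, 1 was higher and 3 lower, beside the same 10% and 9.61%, with a median of -0.17. ERRFI1, an inhibitor of EGF receptor signalling, fell by 0.44 (edgeR adjusted p = 0.00163) and the glucocorticoid receptor gene NR3C1 fell by 0.27 (edgeR adjusted p = 0.00951). The phosphatase gene DUSP1 rose by 0.40 (edgeR adjusted p = 0.00856). Without TET1-CD replicate 1, and also without TET1-CD replicate 2, the calls of SLC39A7, SLC30A5, SLC39A10, ATP7A, ACO1, NR3C1, DUSP1, GCLM and HERPUD1 were lost, as were that of SLC30A5 without EV replicate 1 and that of ATP7A without EV replicate 2.

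**Figure D4:**
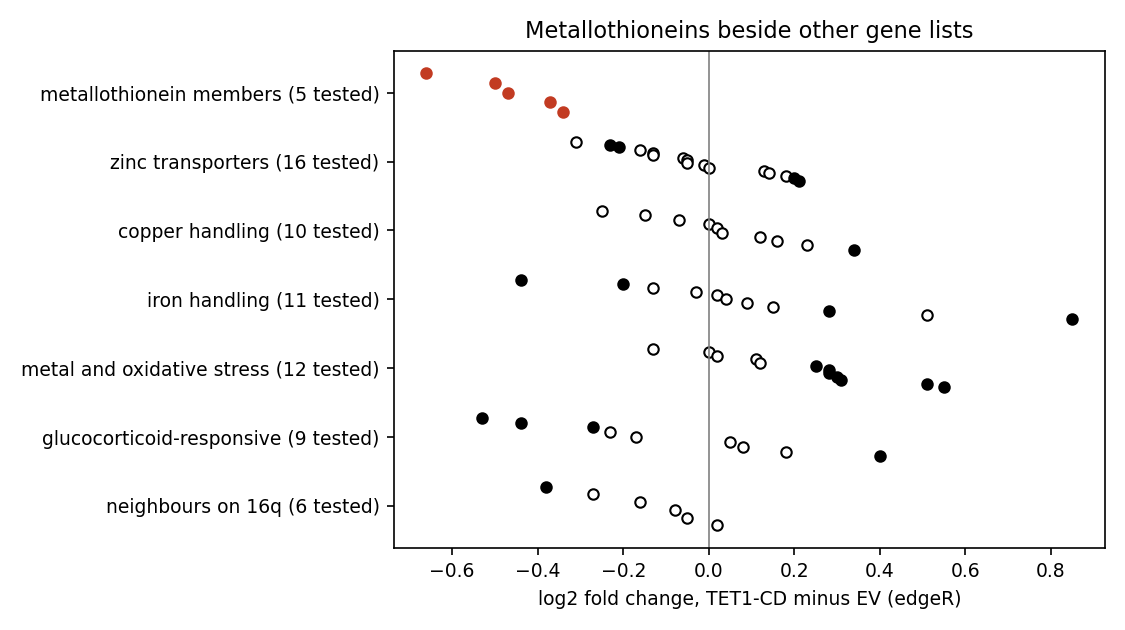
Log2 fold change between TET1-CD and EV cells by edgeR for the 5 tested metallothioneins (red) and the tested genes of 6 other lists, with 1 point for each gene and points of a list set apart vertically for legibility. Filled points passed an adjusted p of 0.05 and open points did not. The metallothioneins lie between -0.66 and -0.34, and the zinc transporters lie on both sides of 0. Filled and above 0 are 7 of the 12 metal and oxidative stress genes, beside 10% of all genes tested.

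The genes whose levels moved most like the summed metallothioneins over the 4 libraries were PDZK1IP1, TMEM186 and RNASE4. The root mean square difference of their centred log2 CPM from that of the sum was 0.0218, 0.0235 and 0.0253, and 290 of 14566 other genes lay within 0.1. PDZK1IP1 had 122 and 155 normalized counts (EV) against 106 and 95.0 (TET1-CD), again with EV replicate 2 highest. The sums of RNASE4 were not whole numbers, so that its level is uncertain. PDZK1IP1, TMEM186 and RNASE4 were picked for their likeness to the sum over the same 4 libraries. Their order of libraries and a fold change near that of the sum therefore follow from this choice. They are given only as a description. The log2 fold changes of PDZK1IP1, TMEM186 and RNASE4 were -0.45, -0.40 and -0.47, and none passed edgeR's test (adjusted p = 0.0843, 0.123 and 0.102).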

How the data were processed

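RNA of 2 EV and 2 TET1-CD libraries of T24 cells was measured. The authors deposited, for each of 195700 transcripts, expected counts that need not be whole and FPKM values. The submitters' processing notes name cutadapt 1.9.1, HISAT2 2.0.1, HTSeq 0.6.1, DESeq2 and hg19. Which program gave fractional counts, and the FPKM values, is not given in the sources used here. Expected counts were summed per gene and rounded, and FPKM values were summed per gene.

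Groups were compared in R 4.3.3 with edgeR 4.0.16 (filterByExpr, TMM, glmQLFit and glmQLFTest, no block) over 14573 genes, with Benjamini-Hochberg adjustment and a threshold of 0.05. The standard error was computed from edgeR's F statistic and fold change. The study's methods name DESeq2, which was run as an alternative (1.42.0), with limma-voom (3.58.1), a replicate block, RLE factors, totals alone, an unfiltered table, a minimum of 10 counts in each library, single transcripts, the ratio of FPKM means and the omission of each library.

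All 10 members were named, with at most 3 passing genes of the smallest p in each list, other metallothioneins of 3 or more counts, and the 3 genes most like the family. The members and lists were chosen with earlier results of these data known. Promoters are RefSeq sequences located on GRCh37 by exact match. The value of 1 marker gene is not reported here.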

Additional observations from a re-analysis of the deposited data

How the results depend on the processing

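The direction of MT2A, MT1E, MT1X, MT1M, MT1F and SLC30A1 was the same under all 13 alternatives, whereas the calls were not. The number of the 10 genes past an adjusted p of 0.05 was 2 with DESeq2 and 0 to 5 with 1 library left out, and the number of all genes past it was 1739 with DESeq2 and 832 to 3779 with 1 library left out, beside 2865. The lowest values came without TET1-CD replicate 2 for the members (0) and without TET1-CD replicate 1 for all genes (832, beside 1014 without TET1-CD replicate 2). With a replicate block 5 members and 3235 genes passed, but same-numbered libraries did not deviate together (r = 0.00713 across 14573 genes, which are not independent), so they share only a number. MTF1 changed sign on the FPKM scale, with a log2 ratio of 0.02.

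Over the 12 alternatives with a test, MT1M passed in 10, MT2A and MT1E in 9, MT1X in 8 and MT1F in 6. Log2 fold changes ranged from -0.64 to -0.30 for MT2A, from -0.44 to -0.24 for MT1E, from -0.47 to -0.28 for MT1X, from -0.82 to -0.51 for MT1M and from -0.74 to -0.25 for MT1F. The largest adjusted p were 0.387, 0.342, 0.46, 0.295 and 0.546 in this order. All came from edgeR's fit of single transcripts, in which 1 of 43213 transcripts passed. By DESeq2 on gene counts the adjusted p were 0.099, 0.00041, 0.117, 0.00332 and 0.108. With a library left out, the lone library of its group is assumed to vary like the other group. The cause of these differences was not tested. With 3 counts as the smallest detectable, MT1A, MT1G and MT1H could not be compared at this depth.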
